A study of Homo sapiens with 12 samples.

Results

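L428 is an established cell line of classical Hodgkin lymphoma, and its response to 5-Aza-dC (decitabine) was read from 6 of the 12 expression arrays of the study. The 6 arrays were chosen by the text of their descriptions: 3 held RNA of L428 cells without treatment, and 3 held RNA of L428 cells given 1 µM 5-Aza-dC for 24 h, washed, and grown for a further 72 h in normal medium. Every L428 array, treated or not, carries the same tumour genome, and the untreated cells are the only control. The other 6 arrays hold the same pair of conditions in L1236, another established Hodgkin lymphoma line, and served here to estimate the spread and to ask where the responses differed. By its title, the series is concerned with survival pathways that the drug turns on, and the comparison asks which transcripts changed in L428 and by how much.

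The labels carry some conflicts. Treated L428 replicate 1 has a source name with the word Aza in place of the 5-Aza-dC of replicates 2 and 3, while its description reads like theirs. The source name of untreated L1236 replicate 1 describes treated L428 cells, whereas its description puts it with the untreated L1236 arrays, where it was kept. The labels call the experiment a triplicate and do not say that the replicates were separate cultures grown at separate times, so the p-values reflect the spread among these arrays alone, which may be technical.

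5-Aza-dC is a deoxycytidine analogue that enters DNA during replication and traps DNA methyltransferases, so methylation is lost from the daughter strands as cells divide. Genes that are silent because their promoters are methylated can then be transcribed, and germ-cell genes are a familiar group among them. Transcripts of silenced repeats can pair into RNA duplexes that cytoplasmic sensors read as viral, which leads to secretion of interferons and to transcription of interferon-stimulated genes. Hodgkin lymphoma cells descend from B cells whose lineage programme is largely switched off, and live on cytokine and survival signals.

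Levels are log2 signals, so a difference of 1 is a 2-fold change, and differences are treated minus untreated, given ± SE. The SE is limma's, from a spread pooled over the 4 groups of both lines. It is not the spread of the L428 arrays alone. Calls are those of limma's moderated test at an adjusted p under 0.05 (Benjamini-Hochberg over 19775 genes), and "rose" or "fell" is written only of called genes. The lowest probe set value of each L428 array lay between 0.66 and 0.68, and between 45.7% and 48.4% of genes lay below 4. The floor named below is this low range, whose level differs between genes. Where the submitters' processing placed that floor is unknown, so the size of a change that starts there is uncertain, and the number of arrays limits the precision of every value. Probe sets of the MAGEA, SSX and histone families can bind transcripts of close relatives, so a value there may belong to another member of the family. These are bulk samples, in which fewer cells of a type and less RNA per cell cannot be told apart.

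Treated L428 replicate 1 stood apart from the other arrays of the line. The SD of its deviations from its group mean was 0.449 over all genes, against 0.202 to 0.315 in the other 5 L428 arrays. Its correlation across genes with treated replicates 2 and 3 was 0.981 and 0.983, below its 0.989 with an untreated L428 array, and genes are not independent replicates. The deviations of the arrays numbered 1 ran together across treatment in L428 (r = 0.25) and against those of replicates 2 and 3 (r from -0.222 to -0.185), while replicates 2 and 3 correlated across numbers (0.173 and 0.161) as they did within them (0.169 and 0.164). Deviations from a group mean cancel out within the group, so the values for replicates 2 and 3 are tied to that of the arrays numbered 1. They are not separate observations. Values from a fit with the replicate number as a block are given wherever they change a call of a named gene in L428, and counts without both arrays numbered 1 stand beside the main ones. For the difference between lines, the calls that the block ended are listed with the flagged results. With that pair of arrays left out, 3633 genes were called in place of 920. In L1236, treated replicate 1 also had the largest SD of its line, 0.384, against 0.156 to 0.25 in the other L1236 arrays. That array enters the pooled spread and the comparison of the lines.

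The identity of the cells was checked on marker genes. BATF3, a transcription factor of Hodgkin Reed-Sternberg cells, measured 13.99, 13.81 and 13.75 without treatment and 14.02, 13.61 and 13.64 after it, and TNFRSF8, which encodes CD30, measured 10.05, 10.32 and 10.80 without treatment and 10.26, 10.19 and 10.08 after it. The mean over the 13 markers of these cells was 10.86, 11.12 and 11.33 without treatment and 11.42, 11.77 and 11.78 after it. Of the 11 markers of the B-cell programme measured, 6 lay below 4 in all 3 untreated arrays, among them MS4A1 (CD20), which measured 2.52, 2.59 and 2.52 without treatment and 2.50, 2.51 and 2.53 after it. Most markers of other cell types were low: 9 of 11 markers of T and NK cells, 8 of 9 of myeloid cells and 9 of 12 of stromal, endothelial and epithelial cells lay below 4 in all 3 untreated arrays. The mean of the T and NK markers ran from 2.76 to 2.97 without treatment and from 3.0 to 3.23 after it, that of the stromal set from 3.75 to 3.87 and from 4.0 to 4.07, and that of the myeloid set from 3.10 to 3.21 and from 3.75 to 3.96. CD3E (1.75, 1.77 and 1.75 without treatment, 1.74, 1.75 and 1.76 after it) and CD14 (2.27, 2.30 and 2.28 without treatment, 2.26, 2.27 and 2.32 after it) stayed at the floor in all 6 arrays. Other markers did not: KRT8 of epithelium measured 6.57, 7.18 and 7.65 without treatment and 8.10, 8.70 and 9.0 after it, COL1A1 of stroma 7.70, 7.80 and 7.64 without treatment and 8.49, 8.65 and 8.37 after it, NKG7 of cytotoxic lymphocytes 3.11, 3.13 and 3.12 without treatment and 5.84, 4.54 and 4.84 after it and PECAM1 of endothelium 7.47, 7.49 and 7.27 without treatment and 8.0, 6.44 and 6.59 after it. Their differences did not pass the test (adjusted p = 0.0764, 0.21, 0.0572 and 0.686), and the part of such markers in the results was not tested.

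After 5-Aza-dC, 920 genes were called in L428, which is 4.65% of those tested. Of these, 656 rose (3.32% of genes tested) and 264 fell (1.34%), and list counts below are to be read against these shares. In all 920 the 3 treated arrays lay beyond all 3 untreated ones. The rises were the larger changes: 506 reached 2-fold, 281 reached 4-fold and 95 reached 16-fold, whereas 59 falls reached 2-fold and 1 reached 4-fold. The median log2 difference was 1.70 over the rises and -0.71 over the falls, against -0.02 over all genes. Of the 19775 genes, 12937 had a lower treated mean and 3893 had an unadjusted p under 0.05 in limma. The rises came both from silence and from expressed genes. Among the 9223 genes that lay below 4 in all 3 untreated arrays, 201 rose (2.18%) and 3 fell. Among the 6465 genes with an untreated mean of at least 8, 191 rose (2.95%) and 186 fell (2.88%).

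The balance of rises and falls depends on the scaling. Centring each array on the median of its genes moved the median gene by -0.43 and called 858 genes higher and 11984 lower, whereas centring on the median of all probe sets moved it by 0.01. The changes described here are relative to the deposited scaling. Without both arrays numbered 1, 1932 genes rose (9.77%) and 1701 fell (8.6%), the shares against which list counts in that setting are to be read. With only the 6 L428 arrays in the fit, 175 rose and 31 fell. With 1 array left out, 3532 genes were called without treated replicate 1, 388 and 368 without treated replicates 2 and 3, and 472 and 456 without untreated replicates 2 and 3. Without treated replicate 1, 1908 of the 19775 genes rose and 1624 fell. List counts in that setting are to be read against these. The fit with the block called 850 genes, 559 higher and 291 lower, and kept 492 of the 920 calls in their direction.

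**Figure D1:**
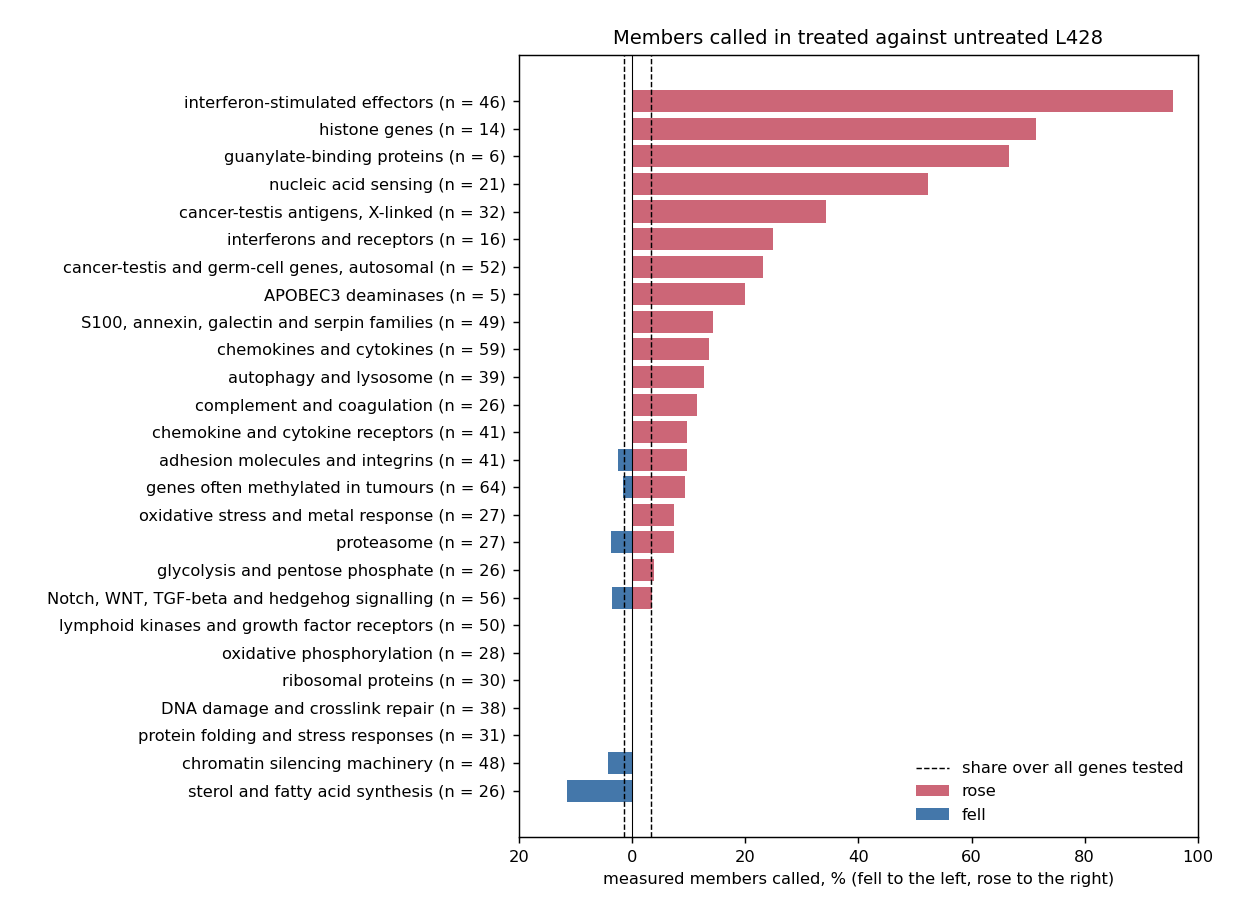
Percent of the measured members of each gene list that rose (bars to the right) or fell (bars to the left) in L428 at an adjusted p under 0.05 in limma, with dashed lines at the shares over all genes tested. The interferon-stimulated effectors stand at 44 of 46 and the histone genes at 10 of 14, while the lists for ribosomal proteins, oxidative phosphorylation, DNA repair and protein folding hold no called member.

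The interferon system held the list with the largest share of rises among those measured, its stimulated effectors, with 44 of 46. Its sensors detect RNA or DNA in the wrong compartment, its adaptors and kinases carry that signal to the interferon genes, and the secreted interferons act through surface receptors, Janus kinases and a STAT complex with IRF9 on the effector genes. Of 12 sensors measured, 7 rose and none fell, where all genes rose in 3.32%. The count was 6 with the block, 10 without both arrays numbered 1, and 5 without treated replicate 2. Of 9 adaptors and kinases, 4 rose, and leaving out 1 array gave between 2 (treated replicate 2) and 5 (treated L1236 replicate 1).

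RIGI, the sensor of short RNA duplexes, measured 6.43, 5.28 and 5.13 without treatment and 10.26, 12.66 and 12.41 after it. Its treated arrays all lay above 10 and its untreated arrays all below 7, a rise of 6.16 ± 0.63 (adjusted p = 0.00103). DHX58, a regulator of the same sensor family, measured 6.94, 5.56 and 5.85 without treatment and 9.07, 10.13 and 10.27 after it, a rise of 3.71 ± 0.51 (adjusted p = 0.00492, 0.057 with the block). IFIH1, which encodes MDA5, the sensor of long RNA duplexes, measured 11.36, 11.14 and 11.08 without treatment and 12.30, 13.74 and 13.45 after it and rose by 1.97 ± 0.38 (adjusted p = 0.0232, 0.0875 with the block). IFIH1 lost the call when any 1 of treated replicates 2 and 3 and untreated replicates 2 and 3 was left out (adjusted p up to 0.102). ZBP1, a sensor of left-handed nucleic acid, started near the floor: it measured 3.94, 4.71 and 3.91 without treatment and 6.65, 8.20 and 7.69 after it, and rose by 3.33 ± 0.35 (adjusted p = 0.00126). In L1236 the difference in ZBP1 was -0.04 ± 0.35, and the difference between the lines passed the test (adjusted p = 0.00772). Among the adaptors and kinases, IRF7, the factor that drives interferon transcription, measured 6.86, 7.07 and 6.71 without treatment and 10.75, 12.18 and 11.98 after it and rose by 4.76 ± 0.49 (adjusted p = 0.00113). The smaller rises were those of MYD88, the adaptor of Toll-like receptors, by 1.28 ± 0.20 (adjusted p = 0.00868), TRIM25, a ubiquitin ligase that acts on RIG-I, by 1.41 ± 0.27 (adjusted p = 0.0217), and STING1, the adaptor of DNA sensing, by 1.04 ± 0.22 (adjusted p = 0.0311, 0.0699 with the block). TRIM25 lost the call when any 1 of treated replicates 2 and 3 and untreated replicates 2 and 3 was left out (adjusted p up to 0.0918). STING1 lost the call when any 1 of treated replicates 2 and 3, untreated replicates 1 and 2 and 3 L1236 arrays was left out (adjusted p up to 0.124). IFIH1 and STING1 were named for their roles after their values were seen, as was DTX3L.

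The interferon genes were silent before treatment. All 7 ligands measured lay below 4 in all 3 untreated arrays, and 3 of them rose. IFNL2, an interferon of the lambda family, measured 2.23, 2.27 and 2.24 without treatment and 7.90, 8.01 and 9.35 after it. The groups were separated by more than 5 log2 units, and the rise was 6.17 ± 0.31 (adjusted p = 2.39e-05, 0.02 with only the 6 L428 arrays in the fit). The SD of its treated L428 arrays was 0.80, against at most 0.02 in the L1236 groups that share in that SE. IFNL1, its neighbour in the family, measured 2.28, 2.31 and 2.29 without treatment and 6.96, 7.19 and 8.19 after it and rose by 5.15 ± 0.68 (adjusted p = 0.00368). IFNB1, which encodes interferon beta, measured 2.44, 2.49 and 2.46 without treatment and 5.38, 8.17 and 8.51 after it. Its treated replicate 1 lay about 3 log2 units below replicates 2 and 3 but still above all untreated arrays, and the rise was 4.89 ± 0.82 (adjusted p = 0.0129). IFNB1 lost the call when any 1 of treated replicates 2 and 3 was left out (adjusted p up to 0.0588). IFNG, interferon gamma, was on in only 2 treated arrays: it measured 2.26, 2.29 and 2.27 without treatment and 2.26, 7.60 and 7.56 after it, with treated replicate 1 level with the untreated arrays, and its difference of 3.53 ± 1.20 did not pass the test (adjusted p = 0.143).

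The promoter windows below are printed because the interferon ligands and effectors moved together, and they show where the letters of the interferon-stimulated response element lie. Each runs from 250 bases before to 50 after the RefSeq start on GRCh38.p14, and capitals mark matches to the core of that element (GAAA, any 2 bases, GAAA) on either strand, runs merged where matches overlap. The windows are chr19:39296157-39296456, plus strand for IFNL1, chr14:94110486-94110785, plus strand for IFI27, chr10:89392373-89392672, plus strand for IFIT1, chr3:122564088-122564387, plus strand for DTX3L and chr2:6877527-6877826, plus strand for the start of RSAD2 that holds a match. A match is a string of letters and is no evidence of binding.
IFNL1: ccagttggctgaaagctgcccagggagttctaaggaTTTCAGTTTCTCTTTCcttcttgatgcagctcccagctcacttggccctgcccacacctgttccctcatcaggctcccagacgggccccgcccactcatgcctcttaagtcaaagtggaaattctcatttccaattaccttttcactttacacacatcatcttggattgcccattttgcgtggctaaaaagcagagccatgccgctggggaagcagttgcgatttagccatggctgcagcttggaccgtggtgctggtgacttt
IFI27: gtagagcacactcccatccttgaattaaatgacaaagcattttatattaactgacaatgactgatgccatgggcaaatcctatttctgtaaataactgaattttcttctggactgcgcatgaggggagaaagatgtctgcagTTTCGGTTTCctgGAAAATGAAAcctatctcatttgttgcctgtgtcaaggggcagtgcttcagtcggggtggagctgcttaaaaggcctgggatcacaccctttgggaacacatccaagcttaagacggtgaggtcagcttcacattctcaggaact
IFIT1: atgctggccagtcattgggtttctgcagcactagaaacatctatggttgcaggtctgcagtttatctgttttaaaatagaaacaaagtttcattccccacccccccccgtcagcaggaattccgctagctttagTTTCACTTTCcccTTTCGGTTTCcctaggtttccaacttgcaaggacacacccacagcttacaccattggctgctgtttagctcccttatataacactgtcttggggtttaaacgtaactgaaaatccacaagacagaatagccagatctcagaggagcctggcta
DTX3L: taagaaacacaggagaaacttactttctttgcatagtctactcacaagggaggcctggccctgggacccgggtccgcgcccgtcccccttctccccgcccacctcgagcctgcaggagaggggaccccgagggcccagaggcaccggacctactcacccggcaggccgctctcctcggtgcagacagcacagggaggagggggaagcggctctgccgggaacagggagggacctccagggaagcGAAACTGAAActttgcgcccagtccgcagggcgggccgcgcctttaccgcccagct
RSAD2: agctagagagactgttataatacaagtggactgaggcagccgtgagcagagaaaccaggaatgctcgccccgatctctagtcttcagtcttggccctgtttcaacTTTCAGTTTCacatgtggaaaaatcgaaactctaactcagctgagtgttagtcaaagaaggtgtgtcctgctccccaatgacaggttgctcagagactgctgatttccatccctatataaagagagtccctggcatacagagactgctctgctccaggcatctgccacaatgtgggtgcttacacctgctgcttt

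The match nearest the 5′ end of its window began 214 bases before the start in IFNL1, 108 before it in IFI27, 116 before it in IFIT1, 6 before it in DTX3L and 145 before it in RSAD2. The IFNL1, IFI27 and IFIT1 windows held 2 matches each and the DTX3L and RSAD2 windows 1 each. Of the 37 interferon-stimulated effector genes with a window, 26 held a match in at least 1 window (70.3%), against 16.1% of the 503 genes that rose, 2.26% of the 221 that fell and 3.99% of the 15382 tested genes with a window. Outside the effector list, 11.8% of genes that rose held one. Over all 35116 RefSeq windows the share was 3.57%. The windows of OAS1, RIGI and IFNB1 hold none of these letters. The DTX3L window overlaps that of PARP9 on the other strand by 137 bases, and the other start of RSAD2 overlaps a CMPK2 window by 165 bases, and all 4 of these genes rose.

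No interferon receptor was called by limma among 6 measured, and 1 had an unadjusted p under 0.05. IFNLR1, the lambda receptor chain, measured 3.06, 2.58 and 3.07 without treatment and 3.84, 4.30 and 3.80 after it, with a difference of 1.08 ± 0.33 (adjusted p = 0.107). Of the transducers, IRF9 rose and the kinases did not: IRF9 measured 8.26, 6.99 and 7.47 without treatment and 10.21, 11.47 and 11.27 after it and rose by 3.41 ± 0.43 (adjusted p = 0.00308), JAK1 differed by -0.31 ± 0.09 (adjusted p = 0.0814) and TYK2 by -0.22 ± 0.18 (adjusted p = 0.566). The remaining STAT genes of this complex were not analysed here.

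**Figure D2:**
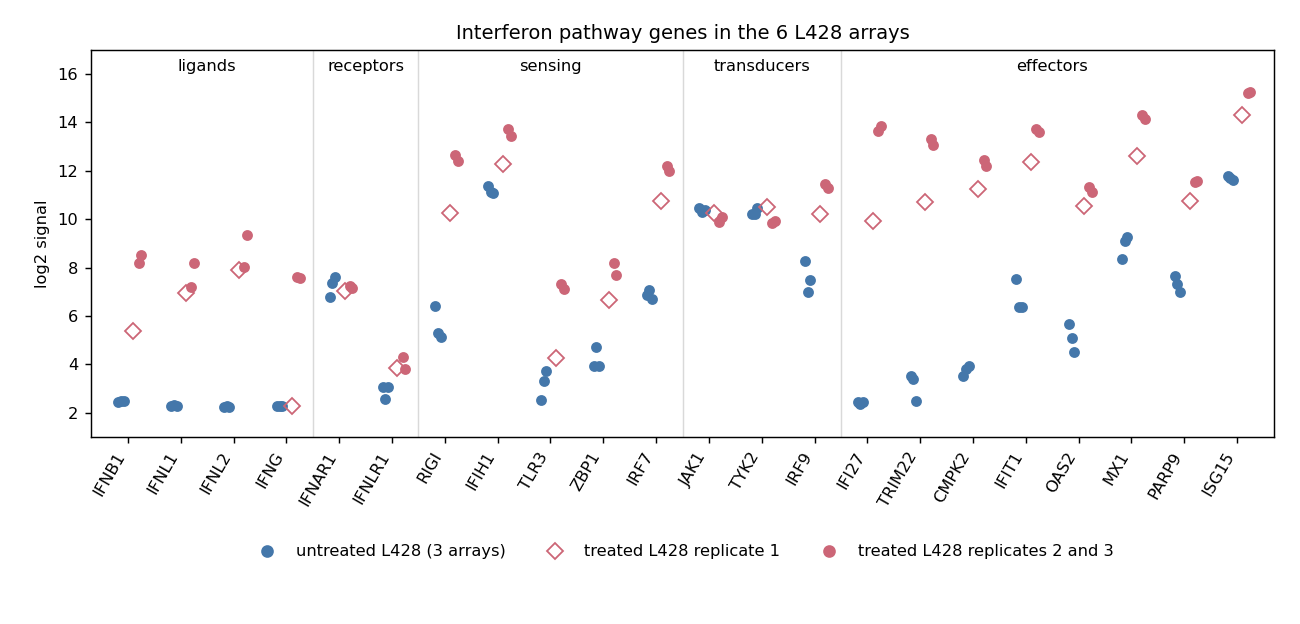
Log2 signal of interferon pathway genes in each of the 6 L428 arrays (filled blue points untreated, open diamond treated replicate 1, filled red points treated replicates 2 and 3). IFNG has treated replicate 1 at 2.26 beside 7.60 and 7.56 in replicates 2 and 3.

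The interferon-stimulated effectors responded almost as a whole. Of 46 measured, 44 rose, none fell, and all 46 had a higher treated mean, with a median difference of 3.16 against -0.02 over all genes (2.73 after gene-median centring). The mean level of the list was 8.43, 8.10 and 8.09 without treatment and 11.22, 12.38 and 12.28 after it. The count was 36 with the block, 43 without both arrays numbered 1, and between 36 (without treated replicate 2) and 45 with 1 array left out. Only 5 of the 46 started from below 4 in all untreated arrays, so most were expressed before the drug. The members not called were HERC6, with a difference of 2.45 ± 0.68 (adjusted p = 0.0829), and ADAR, with 0.32 ± 0.08 (adjusted p = 0.0718).

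All 4 OAS genes, whose enzymes make the messenger that activates RNase L, rose. OAS1 measured 5.04, 4.72 and 3.83 without treatment and 10.53, 12.10 and 11.92 after it, a rise of 6.99 ± 0.61 (adjusted p = 0.000484). OAS2 measured 5.65, 5.10 and 4.50 without treatment and 10.55, 11.35 and 11.14 after it and rose by 5.93 ± 0.40 (adjusted p = 0.000112), and OASL, a family member without that enzymatic activity, measured 6.95, 6.11 and 6.48 without treatment and 10.98, 12.03 and 11.99 after it and rose by 5.15 ± 0.50 (adjusted p = 0.000672). In each of these the lowest treated array lay at least 4 log2 units above the highest untreated one. OAS3 was expressed from the start, at 8.02, 8.17 and 8.05, reached 11.54, 12.55 and 12.53 and rose by 4.13 ± 0.40 (adjusted p = 0.000672).

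The 6 IFIT and MX genes, which bind foreign RNA or block viral capsids, all rose, 3 of them with the block. IFIT1 measured 7.51, 6.38 and 6.38 without treatment and 12.37, 13.73 and 13.62 after it, a rise of 6.48 ± 0.48 (adjusted p = 0.000205). MX1 measured 8.36, 9.10 and 9.25 without treatment and 12.62, 14.32 and 14.13 after it and rose by 4.79 ± 0.53 (adjusted p = 0.00156). IFIT2 rose by 4.84 ± 0.52 (adjusted p = 0.00134) and IFIT3 by 3.68 ± 0.62 (adjusted p = 0.0129, 0.0613 with the block), both from well-expressed untreated levels of 8.76, 8.10 and 8.01 and 10.92, 10.87 and 10.81. IFIT3 lost the call when any 1 of treated replicates 2 and 3 was left out (adjusted p up to 0.0599). Of the 5 genes of ISG15 conjugation, a ubiquitin-like modification, 4 rose. ISG15 itself measured 11.78, 11.69 and 11.60 without treatment and 14.31, 15.22 and 15.25 after it, high in every array, and rose by 3.23 ± 0.36 (adjusted p = 0.00156). USP18, which removes ISG15 and restrains interferon signalling, measured 9.19, 9.11 and 8.82 without treatment and 11.92, 13.10 and 12.92 after it and rose by 3.61 ± 0.30 (adjusted p = 0.000391), and the ligase gene HERC5 rose by 3.01 ± 0.36 (adjusted p = 0.00248).

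All 13 genes of the IFI, IFITM and membrane group rose. IFI27, a mitochondrial protein gene whose promoter is printed above, gave the largest rise of all genes: it measured 2.43, 2.35 and 2.44 without treatment and 9.92, 13.66 and 13.87 after it. Its treated replicate 1 lay 3 to 4 log2 units below replicates 2 and 3 and all 3 stood far above the untreated arrays, a rise of 10.08 ± 1.01 (adjusted p = 0.000954). LGALS3BP, a secreted glycoprotein gene, measured 2.20, 2.05 and 2.03 without treatment and 7.88, 11 and 10.93 after it and rose by 7.84 ± 0.71 (adjusted p = 0.000545). IFI6 measured 8.61, 5.62 and 7.92 without treatment and 12.10, 14.27 and 14.19 after it and rose by 6.14 ± 0.79 (adjusted p = 0.00327), and IFI44L rose from 8.28, 8.03 and 8.15 to 11.58, 13.08 and 13.05, by 4.42 ± 0.47 (adjusted p = 0.00127).

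RSAD2 and CMPK2 are neighbours that encode viperin and a mitochondrial nucleotide kinase. RSAD2 measured 3.36, 3.13 and 2.95 without treatment and 9.11, 12.68 and 12.27 after it, a rise of 8.21 ± 1.14 (adjusted p = 0.00519). CMPK2 measured 3.5, 3.79 and 3.92 without treatment and 11.26, 12.46 and 12.21 after it, a rise of 8.24 ± 0.66 (adjusted p = 0.000305). Both were silent in every untreated array and above 9 in every treated one. ISG20, an exonuclease, measured 10.35, 10.22 and 10.26 without treatment and 12.63, 14.13 and 14.12 after it, was expressed throughout and rose by 3.35 ± 0.57 (adjusted p = 0.0135, 0.0679 with the block). ISG20 lost the call when any 1 of treated replicates 2 and 3 and untreated replicates 2 and 3 was left out (adjusted p up to 0.0633).

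All 13 TRIM, PARP and nuclear body genes rose, 10 with the block. TRIM22, an antiviral ubiquitin ligase, went from silent to high: it measured 3.51, 3.39 and 2.48 without treatment and 10.73, 13.32 and 13.07 after it and rose by 9.25 ± 0.74 (adjusted p = 0.0003). PARP9 measured 7.64, 7.33 and 6.99 without treatment and 10.75, 11.54 and 11.57 after it, with treated replicate 1 close to the others, and rose by 3.97 ± 0.23 (adjusted p = 4.37e-05). DTX3L, its partner and promoter neighbour, measured 8.80, 8.94 and 8.74 without treatment and 10.95, 11.94 and 11.83 after it and rose by 2.74 ± 0.25 (adjusted p = 0.000545). PARP14, a macrodomain enzyme, rose by 3.40 ± 0.48 (adjusted p = 0.00559). PLSCR1, an interferon-inducible scramblase outside the list, measured 8.74, 9.33 and 8.97 without treatment and 12.57, 13.94 and 13.95 after it and rose by 4.47 ± 0.34 (adjusted p = 0.000241).

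The effector response was set against that of L1236. In L1236, 21 of the 46 effectors rose and 1 fell, with a median difference of 1.15, and 19 were called the same way in both lines. The difference between the responses was called for 22 of the 46, all with the larger response in L428. In that direction 387 of all 19775 genes were called, and 4.62% in either direction. The list was chosen with earlier results of these data known. Of its members chosen by rule and called here, OAS2 and PARP9 kept the call with the block. OAS1, OASL, IFIT1, IFIT2, IFI6, IFI44L, TRIM22 and USP18 lost it. The count over all genes was 914 (527 with the larger value in L1236, 387 with the larger in L428), 497 with the block and 1954 without treated L428 replicate 1. Leaving out any 1 other array gave between 442, without untreated L1236 replicate 3, and 2112, without treated L1236 replicate 1. IFNL2 differed by -0.02 ± 0.31 in L1236 (adjusted p of the difference between lines = 0.000109). OAS1 differed there by 1.47 ± 0.61 (adjusted p = 0.00988, 0.0771 with the block), OAS2 by 1.06 ± 0.40 (adjusted p = 0.00212) and IFIT1 by 1.44 ± 0.48 (adjusted p = 0.00471, 0.0649 with the block). In L1236 OAS1 stood at 5.56 ± 0.38 without treatment and 7.04 ± 1.11 after it (SD, n = 3) and IFIT1 at 5.93 ± 0.24 without treatment and 7.37 ± 0.68 after it (SD, n = 3). Not every effector was called for the difference: IFI27 differed by 6.92 ± 1.01 in L1236 and MX1 differed by 2.92 ± 0.53, and for these the difference between lines did not pass the test (adjusted p = 0.315 and 0.243). Among the genes chosen by rule 42 had a call for the difference, of which 18 lost it with at least 1 array left out and 20 with the block. Of the 506 genes that rose at least 2-fold in L428, the difference between lines was called for 152, with the larger response in L428 for 140 and in L1236 for 12. The 506 were chosen by their rise in L428, which by itself favours a larger response there. No conclusion on the lines is drawn from this split.

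**Figure D3:**
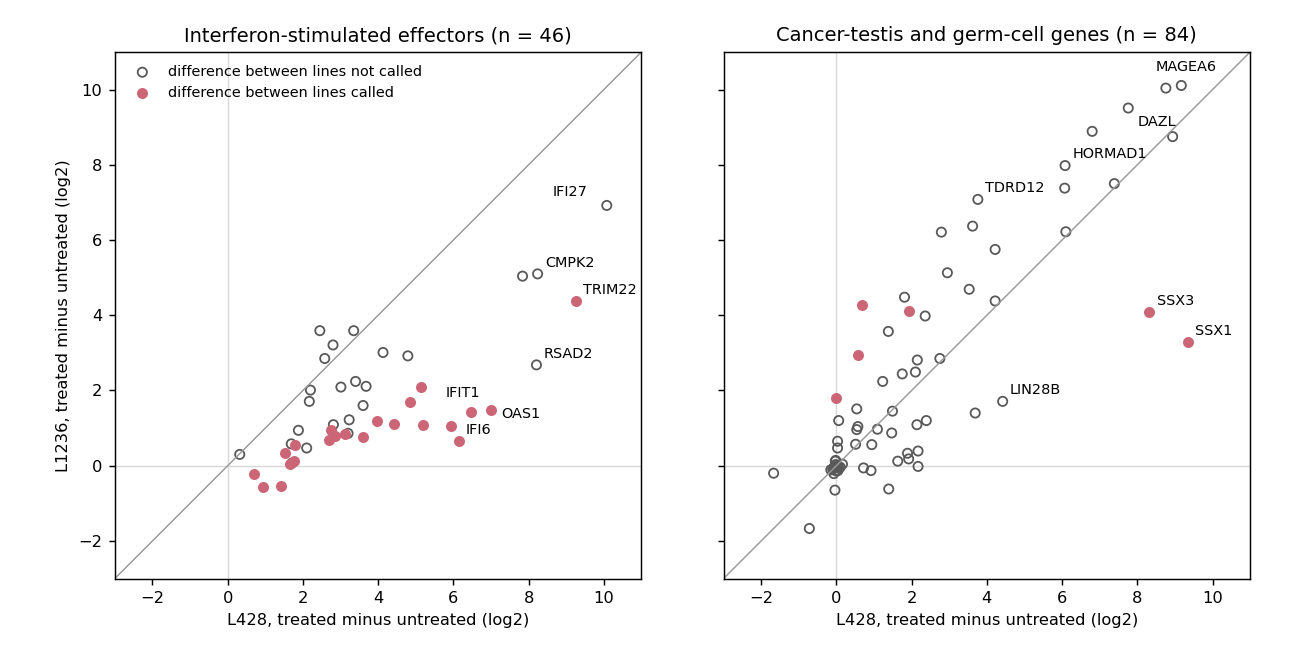
Log2 difference (treated minus untreated) in L428 (horizontal axis) and L1236 (vertical axis), for 46 interferon-stimulated effectors (left) and the 84 cancer-testis and germ-cell genes of both lists (right); filled points are genes called for the difference between lines, and the line marks equal responses. Effectors such as IFIT1 (6.48 in L428 and 1.44 in L1236) lie below the line, while MAGEA6 (9.17 and 10.11) lies near it.

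Other interferon-responsive groups moved less evenly. Of 6 guanylate-binding protein genes, GTPases that act on intracellular pathogens, 4 rose, with a median difference of 2.53. The count was 1 with the block, 5 without both arrays numbered 1, and 0 without treated replicate 2. GBP1 measured 5.39, 5.39 and 5.57 without treatment and 8.28, 11.75 and 11.73 after it, with treated replicate 1 roughly midway between the untreated arrays and replicates 2 and 3, and rose by 5.14 ± 0.90 (adjusted p = 0.0148). GBP4 rose by 3.48 ± 0.60 (adjusted p = 0.0137, 0.0669 with the block) and GBP3 by 2.54 ± 0.48 (adjusted p = 0.0203, 0.0901 with the block). GBP1, GBP4 and GBP3 lost the call when any 1 of treated replicates 2 and 3 and untreated replicates 2 and 3 was left out (adjusted p up to 0.0652, 0.0623 and 0.0916, in that order). Of 5 APOBEC3 deaminases 1 rose and none did with the block: APOBEC3G, which edits viral DNA, measured 11.01, 10.16 and 10.12 without treatment and 11.77, 12.13 and 11.88 after it and rose by 1.49 ± 0.24 (adjusted p = 0.0101, 0.0534 with the block).

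Of 4 genes of the interferon-inducible proteasome and its activator 2 rose, PSMB9 and PSMB8, where all genes rose in 3.32%. PSMB9 measured 10.86, 10.73 and 10.57 without treatment and 11.94, 12 and 12.21 after it and rose by 1.33 ± 0.09 (adjusted p = 0.000137). PSMB8 measured 10.66, 10.56 and 10.37 without treatment and 11.75, 11.70 and 11.79 after it and rose by 1.21 ± 0.12 (adjusted p = 0.000672). Both replace constitutive catalytic subunits and shape the peptides shown on MHC class I, and both had narrow spreads with no overlap between the groups. In L1236 PSMB9 was higher from the start, at 12.85 ± 0.08 without treatment and 13.49 ± 0.08 after it (SD, n = 3). The 2 genes differed there by 0.64 ± 0.09 and 0.17 ± 0.12, and the difference between lines was called for both (adjusted p = 0.0229 and 0.0102, but 0.117 and 0.0686 with the block). In L428 PSMB10, the third inducible catalytic subunit, differed by 0.49 ± 0.14 (adjusted p = 0.0984) and the activator gene PSME1 by 0.15 ± 0.12 (adjusted p = 0.556). Of 23 constitutive subunit genes none rose and 1 fell, PSMC6, by 0.48 ± 0.10 (adjusted p = 0.0307, 0.0663 with the block). PSMC6 lost the call when any 1 of treated replicates 2 and 3, untreated replicates 2 and 3 and 2 L1236 arrays was left out (adjusted p up to 0.114).

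Germ-cell genes formed the next group. X-linked cancer-testis antigens are expressed in testis and in some tumours and are silenced by promoter methylation elsewhere. Of 32 measured, 28 lay below 4 in all untreated arrays, 11 rose and none fell, with a median difference of 2.16 and 30 of 32 higher. The mean level of the list was 3.29, 3.43 and 3.32 without treatment and 5.29, 7.12 and 7.22 after it. Treated replicate 1 was the low array, and without it 24 of the 32 rose (21 without both arrays numbered 1, and 10 without treated replicate 2). In 7 of the 32 all 3 treated arrays lay below 4, so the response did not reach every member.

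Among the MAGE genes 5 of 15 rose, 12 of them without treated replicate 1. MAGEA6 measured 2.37, 2.40 and 2.32 without treatment and 10.17, 12.19 and 12.22 after it. Every treated array stood more than 7 log2 units above every untreated one, a rise of 9.17 ± 0.47 (adjusted p = 2.56e-05). MAGEA12 measured 2.22, 2.24 and 2.20 without treatment and 9.31, 12.14 and 12.02 after it and rose by 8.94 ± 0.65 (adjusted p = 0.000179), and MAGEA4 measured 2.47, 2.53 and 2.62 without treatment and 7.45, 11.26 and 11.09 after it and rose by 7.39 ± 0.94 (adjusted p = 0.00317). The spread of MAGEA4 after treatment was wide, with replicate 1 lying far below the other two. The promoter window of MAGEA6 (chrX:152769640-152769939, minus strand, RefSeq on GRCh38.p14, read 5′ to 3′ on its own strand) is printed to show its CpG sites, in capitals; methylation was not measured here.
MAGEA6: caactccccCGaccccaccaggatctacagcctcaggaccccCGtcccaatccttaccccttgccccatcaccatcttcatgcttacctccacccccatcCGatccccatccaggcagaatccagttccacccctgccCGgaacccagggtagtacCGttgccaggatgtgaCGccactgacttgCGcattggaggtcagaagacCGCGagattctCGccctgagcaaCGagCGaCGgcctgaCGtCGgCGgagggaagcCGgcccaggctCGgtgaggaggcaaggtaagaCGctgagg

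This window held 19 CpG sites, against a median of 21 over the windows of all tested genes, 10 over those of genes silent in untreated L428 and 15 over those of genes that rose at least 4-fold. The windows of the interferon-stimulated effectors had a median of 8.5, and the windows of genes that fell a median of 27.5.

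Of the other 17 X-linked antigens 6 rose. SSX1, a transcriptional repressor gene fused in synovial sarcoma, measured 2.32, 2.88 and 2.84 without treatment and 10.35, 12.79 and 12.92 after it and rose by 9.34 ± 0.60 (adjusted p = 9.64e-05). SSX3 measured 2.44, 3.70 and 2.44 without treatment and 9.94, 11.76 and 11.84 after it and rose by 8.32 ± 0.55 (adjusted p = 0.00011). TKTL1, a transketolase-like gene, measured 2.79, 2.64 and 2.45 without treatment and 9.65, 12.33 and 12.17 after it and rose by 8.76 ± 0.60 (adjusted p = 0.000122). All 3 passed from silence to above 9 in every treated array. CTAG2, which encodes a NY-ESO-1 family antigen, measured 3.0, 3.05 and 3.01 without treatment and 8.46, 10.34 and 10.66 after it and rose by 6.80 ± 0.51 (adjusted p = 0.000213). In L1236, 19 of the 32 rose and 1 fell, and all 11 that rose in L428 rose there too. The difference between lines was called for 4, with SSX1 and SSX3 among those larger in L428 (L1236 differences 3.29 ± 0.60 and 4.09 ± 0.55, adjusted p = 0.00591 and 0.02). SSX1 was already on in L1236, at 9.76 ± 0.39 without treatment and 13.05 ± 0.23 after it (SD, n = 3), and so was SSX3, at 7.60 ± 0.43 without treatment and 11.69 ± 0.38 after it (SD, n = 3), so the treated levels of the lines lay close together.

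Autosomal germ-cell genes responded in part. Of 52 measured, 12 rose and none fell, the median difference was 0.06 (-0.38 after gene-median centring), and 24 stayed below 4 in all 3 treated arrays. The count was 7 with the block, with 1 fall, 20 without treated replicate 1 and 6 without treated replicate 2. DAZL, an RNA-binding protein gene of germ cells, measured 2.85, 2.95 and 2.86 without treatment and 8.64, 11.74 and 11.54 after it and rose by 7.76 ± 0.67 (adjusted p = 0.000484). MAEL, a gene of the piRNA pathway that silences transposons, measured 2.15, 2.17 and 2.28 without treatment and 6.69, 9.07 and 9.07 after it and rose by 6.07 ± 0.56 (adjusted p = 0.000579). HORMAD1, a gene of the meiotic chromosome axis, measured 2.23, 2.27 and 2.44 without treatment and 7.33, 9.02 and 8.83 after it and rose by 6.08 ± 0.38 (adjusted p = 8.03e-05). These 3 were silent in all untreated arrays and above 6 in all treated ones. CTCFL, the testis paralogue of CTCF, measured 2.66, 2.81 and 2.73 without treatment and 6.38, 7.15 and 7.32 after it, with the treated arrays within 1 log2 unit of each other, and rose by 4.22 ± 0.20 (adjusted p = 1.83e-05).

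The piRNA and germ-cell RNA-binding group had 5 rises of 16 (3 with the block, 6 without treated replicate 1, and 3 without untreated replicate 2). The meiotic group had 4 of 18 (2 with the block, 7 without treated replicate 1, 1 without treated replicate 2), and the other testis or placenta genes 3 of 18 (7 without treated replicate 1, 1 without treated replicate 2). SYCP3, of the synaptonemal complex, rose by 2.95 ± 0.50 (adjusted p = 0.0129, 0.0717 with the block), REC8, a meiotic cohesin, by 2.14 ± 0.43 (adjusted p = 0.028, 0.088 with the block), TDRD12 of the piRNA pathway by 3.76 ± 0.86 (adjusted p = 0.0429, 0.081 with the block), and LIN28B, a blocker of let-7 maturation, by 4.42 ± 0.99 (adjusted p = 0.0398, 0.0751 with the block). PRAME, unlike the rest, was expressed before treatment: it measured 10.24, 10.49 and 10.60 without treatment and 11.08, 11.42 and 11.67 after it and rose by 0.94 ± 0.16 (adjusted p = 0.0128). SYCP3 lost the call when any 1 of treated replicates 2 and 3 and untreated replicates 2 and 3 was left out (adjusted p up to 0.0553). REC8 lost the call when any 1 of treated replicates 2 and 3, untreated replicates 1, 2 and 3 and 2 L1236 arrays was left out (adjusted p up to 0.117). TDRD12 lost the call when any 1 of treated replicates 2 and 3, untreated replicates 1, 2 and 3 and 6 L1236 arrays was left out (adjusted p up to 0.163). LIN28B lost the call when any 1 of treated replicates 2 and 3, untreated replicates 1, 2 and 3 and 5 L1236 arrays was left out (adjusted p up to 0.158). PRAME lost the call when treated replicate 2 was left out (adjusted p up to 0.0538). Of the 12 rises, 10 were also called in L1236, and the difference between lines was called for 3 of the 52, each larger in L1236.

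GCNA, another germ-cell gene on the X chromosome outside the lists, measured 5.86, 4.34 and 4.77 without treatment and 11.66, 12.85 and 12.78 after it and rose by 7.44 ± 0.41 (adjusted p = 3.68e-05). MBD3L2, a methyl-CpG-binding domain paralogue, measured 3.23, 3.40 and 4.04 without treatment and 8.39, 11.49 and 11.52 after it and rose by 6.91 ± 0.80 (adjusted p = 0.00194). LAPTM4B, a lysosomal membrane protein gene, measured 2.60, 2.78 and 2.72 without treatment and 7.59, 10.17 and 10.36 after it and rose by 6.67 ± 0.61 (adjusted p = 0.000545). All 3 belonged to the 20 largest rises, and in each of them treated replicate 1 was the lowest treated array.

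A stricter set of 45 genes went from below 4 in all untreated arrays to above 6 in all treated ones, which is 0.488% of the 9223 silent genes. All 45 were called, as the rule all but required, and no gene went the other way. Limits of 3.5 and 7 left 19 genes, and without treated replicate 1 there were 175. The set held 8 X-linked antigens, 4 autosomal germ-cell genes, 5 interferon-stimulated effectors, 2 interferons and 1 receptor, and 25 members were in no list. On the X chromosome lay 12 of the 45 (26.7%), against 3.89% of silent genes and 3.53% of all genes.

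In L1236, 129 genes passed the same rule, and 21 of the 45 were among them. Another 9 of the 45 lay above 6 in all untreated L1236 arrays, and 3 stayed below 4 in all L1236 arrays. The difference between lines was called for 18, with the larger response in L428 for 16. The 45 were chosen by their rise in L428, which by itself favours a larger response there. CCNA1, a cyclin of male meiosis, measured 2.96, 3.33 and 2.63 without treatment and 8.01, 11.03 and 10.97 after it and rose by 7.03 ± 0.86 (adjusted p = 0.00264). Its L1236 difference was 1.01 ± 0.86 (adjusted p of the difference = 0.0285, 0.0811 with the block).

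PRDX2, a peroxiredoxin, was chosen after its values were seen, for its narrow spread. It measured 2.88, 3.02 and 2.89 without treatment and 7.97, 8.21 and 8.05 after it. Treated replicate 1 was level with the others here, and the rise was 5.15 ± 0.11 (adjusted p = 1.80e-07); the L1236 difference was 8.07 ± 0.11 (adjusted p of the difference = 1.80e-05). FAM9B, an X-linked testis gene chosen in the same way, measured 2.58, 2.65 and 2.58 without treatment and 6.26, 6.51 and 6.39 after it and rose by 3.79 ± 0.10 (adjusted p = 2.83e-07). The CpG-rich windows of CCNA1 (chr13:36431705-36432004, plus strand) and PRDX2 (chr19:12801751-12802050, minus strand) hold 35 and 46 CpG sites and are printed, from RefSeq on GRCh38.p14, with each CpG in capitals, beside the MAGEA6 window above.
CCNA1: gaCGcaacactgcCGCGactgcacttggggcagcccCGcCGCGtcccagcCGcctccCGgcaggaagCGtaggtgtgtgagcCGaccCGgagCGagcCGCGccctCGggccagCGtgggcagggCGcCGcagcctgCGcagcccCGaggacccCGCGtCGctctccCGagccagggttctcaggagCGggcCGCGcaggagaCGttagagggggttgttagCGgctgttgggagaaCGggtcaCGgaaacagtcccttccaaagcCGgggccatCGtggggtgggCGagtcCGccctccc
PRDX2: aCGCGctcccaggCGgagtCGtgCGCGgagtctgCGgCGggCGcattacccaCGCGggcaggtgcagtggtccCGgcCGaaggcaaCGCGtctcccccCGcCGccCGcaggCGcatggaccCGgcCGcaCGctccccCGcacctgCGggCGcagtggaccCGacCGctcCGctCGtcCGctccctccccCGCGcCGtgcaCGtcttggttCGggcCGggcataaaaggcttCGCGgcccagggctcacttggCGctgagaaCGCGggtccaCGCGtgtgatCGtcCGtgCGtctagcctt

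**Figure D4:**
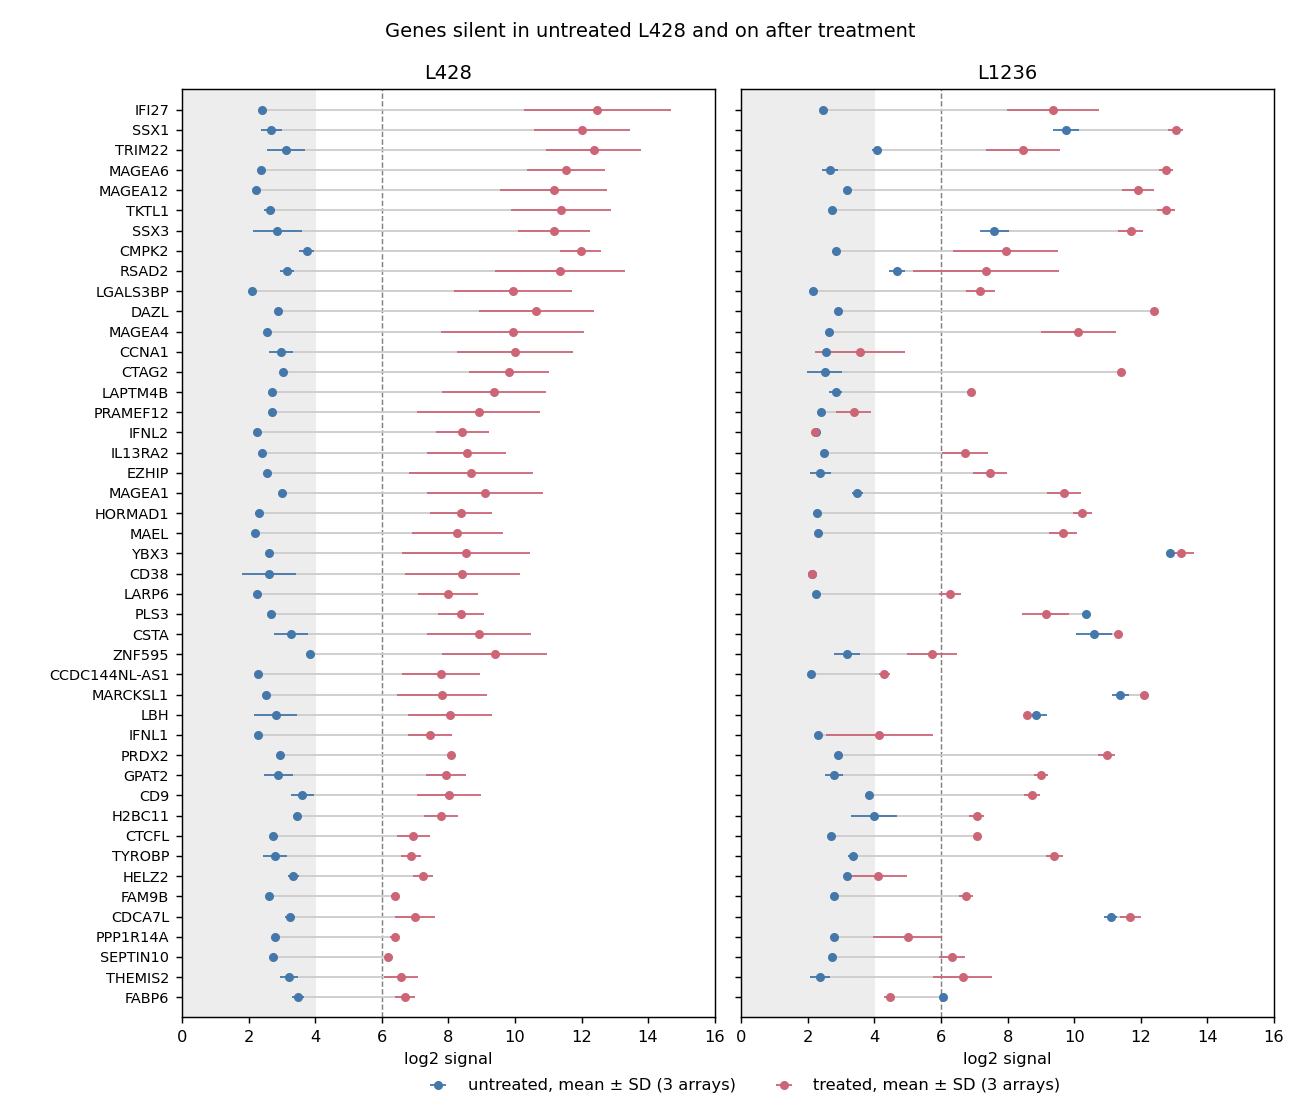
Log2 signals (mean ± SD of 3 arrays; blue untreated, red treated) of the 45 genes that lay below 4 in all 3 untreated and above 6 in all 3 treated L428 arrays, in L428 (left) and L1236 (right). In L1236 most blue points lie in the shaded range below 4 as well, but 9 genes, such as SSX1 at 9.76, were already above 6 there in all untreated arrays.

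Most histone genes measured rose. Of 14, 10 rose and none fell, against rises in 3.32% of all genes, and 3 had a lower treated mean, with a median difference of 3.14. The count was 9 with the block and ran from 8 (without treated replicate 2) to 10 with 1 array left out. The mean level of the list was 6.67, 6.59 and 6.46 without treatment and 8.53, 9.58 and 9.51 after it. H2AC6 measured 5.63, 3.13 and 2.66 without treatment and 9.61, 10.96 and 10.97 after it and rose by 6.71 ± 0.78 (adjusted p = 0.00194). H4C8 measured 5.10, 4.77 and 3.47 without treatment and 7.72, 10.83 and 10.56 after it and rose by 5.25 ± 0.78 (adjusted p = 0.00711, 0.0515 with the block), and H2AC8 measured 3.67, 4.54 and 4.37 without treatment and 7.20, 9.36 and 9.14 after it and rose by 4.37 ± 0.56 (adjusted p = 0.00327). Treated replicate 1 was the lowest treated array in all 3 and lay above every untreated one. In L1236, 9 histone genes rose, 8 of them called in both lines. H2AC6 was an exception, with 11.16 ± 0.72 without treatment and 11.05 ± 0.59 after it (SD, n = 3) in L1236 and a difference there of -0.11 ± 0.78 (adjusted p of the difference between lines = 0.0112, 0.0731 with the block). None of the 16 windows of the 14 histone genes in the list held the letters of the interferon-stimulated response element. The window of H2BC11, a histone gene outside the list that also rose, held 1 match.

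Secreted signals that draw leukocytes changed in a few members. Of 29 chemokines, 23 lay below 4 in all untreated arrays and 6 rose, with a median difference of 0.03. The count was 2 with the block, 9 without both arrays numbered 1 and 1 without treated replicate 2. CXCL10, a ligand of CXCR3, was expressed before treatment: it measured 8.07, 8.48 and 8.66 without treatment and 11.98, 13.62 and 13.66 after it, and rose by 4.68 ± 0.42 (adjusted p = 0.000545). CXCL11, a ligand of the same receptor, started from the floor, measured 2.29, 2.33 and 2.65 without treatment and 5.38, 10.17 and 10.02 after it and rose by 6.10 ± 1.12 (adjusted p = 0.0185). CCL20, the ligand of CCR6, measured 2.41, 2.45 and 2.60 without treatment and 5.58, 10.76 and 10.86 after it and rose by 6.58 ± 1.39 (adjusted p = 0.0328, 0.0671 with the block). The treated values of CXCL11 and CCL20 were far apart, with replicate 1 lowest. CXCL11 lost the call when any 1 of treated replicates 2 and 3 and untreated replicates 2 and 3 was left out (adjusted p up to 0.079). CCL20 lost the call when any 1 of treated replicates 2 and 3, untreated replicates 1, 2 and 3 and 4 L1236 arrays was left out (adjusted p up to 0.132).

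CCL17 and CCL22, which draw CCR4-bearing T cells in Hodgkin lymphoma, began at opposite ends of the scale. CCL17 was already near the top: it measured 13.41, 13.97 and 14.10 without treatment and 14.93, 14.35 and 14.34 after it, with a difference of 0.71 ± 0.20 (adjusted p = 0.0837). CCL22 measured 3.12, 3.06 and 3.13 without treatment and 5.44, 7.46 and 7.67 after it and rose by 3.76 ± 0.86 (adjusted p = 0.0433, 0.125 with the block). CCL22 lost the call when any 1 of treated replicates 2 and 3, untreated replicates 1, 2 and 3 and 5 L1236 arrays was left out (adjusted p up to 0.174). In L1236 CCL17 differed by 3.01 ± 0.20, and the difference between lines was called (adjusted p = 0.00298, 0.0597 with the block).

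Of 30 interleukins and growth factors, 2 rose, with 5 without both arrays numbered 1 and 1 without treated replicate 2. All genes rose in 3.32%, and in 9.77% without both arrays numbered 1. TNFSF13B, which encodes the B-cell survival factor BAFF, measured 5.81, 5.41 and 5.26 without treatment and 7.99, 10.43 and 10.41 after it and rose by 4.12 ± 0.59 (adjusted p = 0.00589). TNFSF10, which encodes the death ligand TRAIL, was high in all arrays, measured 12.61, 12.19 and 12.51 without treatment and 13.38, 14.21 and 14.18 after it and rose by 1.49 ± 0.27 (adjusted p = 0.0178). TNFSF10 lost the call when any 1 of treated replicates 2 and 3 and untreated replicates 2 and 3 was left out (adjusted p up to 0.0814). In L1236 TNFSF13B differed by 0.19 ± 0.59 (adjusted p of the difference = 0.0333, 0.103 with the block).

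Among the receptors, 4 of 26 for interleukins and growth factors rose, 2 with the block, 7 without both arrays numbered 1 and 1 without treated replicate 2. IL13RA2, a decoy receptor for interleukin 13, was silent before treatment: it measured 2.38, 2.40 and 2.40 without treatment and 7.17, 9.15 and 9.31 after it, and rose by 6.15 ± 0.54 (adjusted p = 0.000484). IL15RA rose by 1.14 ± 0.25 (adjusted p = 0.0394, 0.147 with the block) and IL6R by 0.88 ± 0.21 (adjusted p = 0.0495). IL15RA lost the call when any 1 of treated replicates 2 and 3, untreated replicates 1, 2 and 3 and 3 L1236 arrays was left out (adjusted p up to 0.153). IL6R lost the call when any 1 of treated replicates 2 and 3, untreated replicates 1, 2 and 3 and 6 L1236 arrays was left out (adjusted p up to 0.195). No chemokine receptor of 15 was called (1 at an unadjusted p under 0.05). Without treated replicate 1, 2 of them rose, as did 1908 of all 19775 genes. The member with the smallest adjusted p was CCR7, the lymph-node homing receptor, with 12.71, 12.85 and 13.18 without treatment and 13.26, 13.69 and 13.70 after it and a difference of 0.64 ± 0.16 (adjusted p = 0.0577).

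Surface and adhesion genes gave 4 rises of 23 and, among 18 integrins, 1 fall. CADM1, a tumour suppressor of the immunoglobulin family, measured 6.79, 6.43 and 6.95 without treatment and 9.80, 11.40 and 11.49 after it and rose by 4.17 ± 0.43 (adjusted p = 0.00106). CDH1, which encodes E-cadherin, measured 3.32, 5.08 and 4.60 without treatment and 5.82, 7.86 and 7.29 after it and rose by 2.66 ± 0.58 (adjusted p = 0.0362). CD2, a T-cell adhesion receptor, measured 2.43, 2.48 and 3.33 without treatment and 4.39, 4.16 and 4.82 after it and rose by 1.71 ± 0.26 (adjusted p = 0.00818), while the other T and NK markers measured did not pass the test. ITGA4, the alpha chain of VLA-4, fell by 1.08 ± 0.20 (adjusted p = 0.0191, 0.0751 with the block). CDH1 lost the call when any 1 of treated replicates 2 and 3, untreated replicates 1, 2 and 3 and 4 L1236 arrays was left out (adjusted p up to 0.143). ITGA4 lost the call when any 1 of treated replicates 2 and 3 and untreated replicates 2 and 3 was left out (adjusted p up to 0.0869). Without treated replicate 2, 2 of the 23 adhesion genes rose and no integrin fell.

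A few genes of other lineages, and 1 of the B-cell markers, rose. TYROBP, an adaptor of myeloid and NK receptors, measured 3.02, 2.37 and 2.99 without treatment and 6.52, 7.09 and 7.0 after it, tightly spaced in both groups, and rose by 4.08 ± 0.22 (adjusted p = 2.94e-05). AIF1, a macrophage gene that was already on, measured 5.77, 5.92 and 5.91 without treatment and 7.33, 7.19 and 7.25 after it and rose by 1.39 ± 0.30 (adjusted p = 0.0351, 0.0815 with the block). The myeloid defining genes CD14, LYZ and MPO stayed below 4 in all 6 arrays, with differences of 0.00 ± 0.02, -0.06 ± 0.05 and -0.02 ± 0.03. PAX5, the B-cell identity factor, measured 5.44, 5.28 and 5.25 without treatment and 5.93, 6.69 and 7.01 after it and rose by 1.22 ± 0.28 (adjusted p = 0.0445, 0.127 with the block). AIF1 lost the call when any 1 of treated replicates 2 and 3, untreated replicates 1, 2 and 3 and 4 L1236 arrays was left out (adjusted p up to 0.121). PAX5 lost the call when any 1 of treated replicates 2 and 3, untreated replicates 1, 2 and 3 and 5 L1236 arrays was left out (adjusted p up to 0.163). Its targets CD79A and BLNK differed by -0.01 ± 0.16 (adjusted p = 0.99) and 0.12 ± 0.43 (adjusted p = 0.897). Of the B-cell markers 1 of 11 rose, of the plasma-cell markers 0 of 6, and of the stromal, endothelial and epithelial markers 0 of 12.

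Some genes of other lineages and of plasma cells that were higher after treatment in L1236 were not called in L428. EPCAM measured 2.82, 2.88 and 2.84 without treatment and 2.80, 2.81 and 2.87 after it and differed by 5.37 ± 0.10 in L1236 (adjusted p of the difference = 1.02e-07). CD8A measured 1.95, 1.98 and 1.97 without treatment and 1.94, 1.96 and 1.96 after it and differed by 3.36 ± 0.17 in L1236 (adjusted p = 9.15e-05). PRDM1, the plasma-cell factor BLIMP1, was well expressed at 9.84, 9.75 and 9.90 without treatment and 9.68, 10.05 and 9.81 after it, and differed by 1.65 ± 0.10 in L1236 (adjusted p = 0.000285). None of these 3 differed by more than 0.02 in L428.

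Complement, calcium-binding and galectin genes held single responders. Of 26 complement and coagulation genes 3 rose, 1 with the block and 5 without both arrays numbered 1, where all genes rose in 3.32% in the main fit. CR2, the B-cell complement receptor CD21, measured 3.09, 2.59 and 2.76 without treatment and 5.66, 5.79 and 5.71 after it and rose by 2.91 ± 0.10 (adjusted p = 2.78e-06). In L1236 it differed by -0.03 ± 0.10 (adjusted p of the difference = 8.68e-06). PLAUR, the urokinase receptor, rose by 3.63 ± 0.71 (adjusted p = 0.024, 0.0551 with the block), and CD55, which limits complement, by 1.10 ± 0.24 (adjusted p = 0.039, 0.136 with the block). PLAUR lost the call when any 1 of treated replicates 2 and 3 and untreated replicates 1, 2 and 3 was left out (adjusted p up to 0.0968). CD55 lost the call when any 1 of treated replicates 2 and 3, untreated replicates 2 and 3 and 4 L1236 arrays was left out (adjusted p up to 0.156).

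Of 17 S100 genes 3 rose, where all genes rose in 3.32%. S100P measured 3.10, 3.66 and 4.01 without treatment and 6.05, 6.46 and 6.85 after it and rose by 2.87 ± 0.26 (adjusted p = 0.000579), and it rose further in L1236, by 5.37 ± 0.26 (adjusted p of the difference = 0.00796). S100A4, linked to cell motility, measured 6.85, 7.26 and 7.30 without treatment and 10.34, 9.68 and 9.49 after it and rose by 2.70 ± 0.48 (adjusted p = 0.0158, 0.0956 with the block), and S100A13 rose by 1.34 ± 0.16 (adjusted p = 0.00246). ANXA6, a membrane-binding annexin, measured 5.16, 5.97 and 6.34 without treatment and 7.79, 8.31 and 8.33 after it and rose by 2.32 ± 0.27 (adjusted p = 0.0018), the only rise among 11 annexins. The galectin genes LGALS9 and LGALS8 rose by 1.89 ± 0.36 (adjusted p = 0.0211) and 1.60 ± 0.20 (adjusted p = 0.00278), and SERPINF1, the gene of an antiangiogenic serpin, by 2.19 ± 0.35 (adjusted p = 0.0106). S100A4 lost the call when any 1 of treated replicate 2 and untreated replicates 2 and 3 was left out (adjusted p up to 0.0561). LGALS9 lost the call when any 1 of treated replicates 2 and 3 and untreated replicate 2 was left out (adjusted p up to 0.0938).

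Of 64 genes often reported as methylated in tumours, 6 rose and 1 fell, where all genes rose in 3.32% and fell in 1.34%, and 20 had an unadjusted p under 0.05. Of the 64, 34 lay below 4 in all untreated arrays and 26 in all treated ones, with a median difference of 0.00 (-0.43 after gene-median centring). The count of rises was 3 with the block, 15 without both arrays numbered 1, and between 3 and 15 with 1 array left out. UCHL1, a ubiquitin hydrolase of neurons, measured 2.07, 2.10 and 2.09 without treatment and 5.98, 9.69 and 9.58 after it, with treated replicate 1 far below the others, and rose by 6.33 ± 1.20 (adjusted p = 0.0212, 0.0542 with the block). BIK, a BH3-only death gene, measured 6.07, 6.62 and 6.21 without treatment and 8.69, 9.52 and 9.35 after it and rose by 2.89 ± 0.27 (adjusted p = 0.000613). CDKN1A, which encodes the cell-cycle inhibitor p21, measured 6.38, 7.02 and 7.03 without treatment and 8.07, 9.95 and 9.78 after it and rose by 2.46 ± 0.58 (adjusted p = 0.0472, 0.0817 with the block). SOCS2, an inhibitor of cytokine signalling, rose by 1.32 ± 0.20 (adjusted p = 0.00708, 0.0515 with the block) and TWIST1 by 0.96 ± 0.20 (adjusted p = 0.0289, 0.0986 with the block). UCHL1 lost the call when any 1 of treated replicates 2 and 3 and untreated replicates 2 and 3 was left out (adjusted p up to 0.0939). CDKN1A lost the call when any 1 of treated replicates 2 and 3, untreated replicates 1, 2 and 3 and 5 L1236 arrays was left out (adjusted p up to 0.187). TWIST1 lost the call when any 1 of treated replicates 2 and 3, untreated replicates 1 and 3 and 2 L1236 arrays was left out (adjusted p up to 0.12).

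The enzymes on which the drug acts were called in neither direction. DNMT1, the maintenance methyltransferase, measured 13.25, 13.11 and 13.32 without treatment and 13.16, 12.65 and 12.72 after it, a difference of -0.38 ± 0.14 (adjusted p = 0.159). UHRF1, its partner at replication forks, differed by -0.10 ± 0.18 (adjusted p = 0.766), and the de novo enzymes DNMT3A and DNMT3B by 1.02 ± 0.46 (adjusted p = 0.272) and 0.62 ± 0.18 (adjusted p = 0.1). DCK, the kinase that activates the drug, measured 12.37, 11.77 and 11.26 without treatment and 11.86, 11.17 and 11.17 after it, a difference of -0.40 ± 0.35 (adjusted p = 0.585). Of 48 genes of the silencing machinery none rose and 2 fell: TET3, a methylcytosine oxidase, by 0.67 ± 0.14 (adjusted p = 0.0272, 0.0585 with the block), and RING1, a Polycomb ubiquitin ligase, by 0.31 ± 0.06 (adjusted p = 0.0254, 0.0569 with the block). TET3 lost the call when any 1 of treated replicates 2 and 3, untreated replicates 1, 2 and 3 and 1 L1236 array was left out (adjusted p up to 0.109). RING1 lost the call when any 1 of treated replicates 2 and 3 and untreated replicates 1, 2 and 3 was left out (adjusted p up to 0.111). Without both arrays numbered 1, 6 of the 48 rose and 9 fell, where 9.77% of all genes rose and 8.6% fell. With the block 1 rose and 1 fell.

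Of the 264 falls, 1 reached 4-fold. AGAP4, a GTPase-activating protein gene, fell furthest. It measured 6.21, 4.97 and 5.10 without treatment and 3.66, 3.10 and 3.13 after it and fell by 2.13 ± 0.30 (adjusted p = 0.00519). TSPAN12, a tetraspanin of Norrin signalling, measured 7.43, 7.39 and 6.98 without treatment and 6.06, 5.68 and 5.08 after it and fell by 1.66 ± 0.22 (adjusted p = 0.00347). In both the groups were clearly apart, and the L1236 differences were -0.33 ± 0.30 and -0.06 ± 0.22, with the difference between lines called (adjusted p = 0.0465 and 0.0233). SPOPL, an adaptor of a cullin ubiquitin ligase, measured 8.50, 8.37 and 8.04 without treatment and 7.16, 5.81 and 6.07 after it and fell by 1.95 ± 0.35 (adjusted p = 0.0168). VEGFB, a vascular growth factor gene, fell by 1.92 ± 0.40 (adjusted p = 0.0316, 0.082 with the block). Among the other of the 12 largest falls, PTPN9 fell by 1.92 ± 0.43 (adjusted p = 0.0413, 0.127 with the block), TMEM133 by 1.88 ± 0.43 (adjusted p = 0.0412, 0.0569 with the block), ADGRA3 by 1.61 ± 0.36 (adjusted p = 0.0406, 0.0502 with the block), RIMKLA by 1.60 ± 0.35 (adjusted p = 0.0358, 0.116 with the block), SCAI by 1.58 ± 0.33 (adjusted p = 0.0319, 0.114 with the block), PLEKHH3 by 1.57 ± 0.34 (adjusted p = 0.0371) and RNASE1 by 1.57 ± 0.36 (adjusted p = 0.0436). SPOPL lost the call when any 1 of treated replicates 2 and 3 and untreated replicate 2 was left out (adjusted p up to 0.0785). VEGFB and SCAI lost the call when any 1 of treated replicates 2 and 3, untreated replicates 1, 2 and 3 and 3 L1236 arrays was left out (adjusted p up to 0.131 and 0.129, in that order). PTPN9 lost the call when any 1 of treated replicates 2 and 3, untreated replicates 2 and 3 and 6 L1236 arrays was left out (adjusted p up to 0.158). TMEM133 lost the call when any 1 of treated replicate 2, untreated replicates 1, 2 and 3 and 6 L1236 arrays was left out (adjusted p up to 0.133). ADGRA3 and PLEKHH3 lost the call when any 1 of treated replicates 2 and 3, untreated replicates 1, 2 and 3 and 5 L1236 arrays was left out (adjusted p up to 0.164 and 0.124, in that order). RIMKLA lost the call when any 1 of treated replicates 2 and 3, untreated replicates 2 and 3 and 5 L1236 arrays was left out (adjusted p up to 0.14). RNASE1 lost the call when any 1 of treated replicates 2 and 3, untreated replicates 1, 2 and 3 and 6 L1236 arrays was left out (adjusted p up to 0.176).

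Among well-expressed genes, PDK1, which holds back pyruvate oxidation, measured 10.20, 9.40 and 10.36 without treatment and 8.91, 8.30 and 8.11 after it and fell by 1.54 ± 0.29 (adjusted p = 0.0196). EIF2A, a translation initiation factor, measured 12.22, 12.02 and 11.94 without treatment and 11.36, 10.33 and 10.06 after it and fell by 1.48 ± 0.28 (adjusted p = 0.021). Further falls at high level were those of NABP2, of the response to DNA breaks, by 1.47 ± 0.32 (adjusted p = 0.0382, 0.128 with the block), SUCLA2, of the citric acid cycle, by 1.38 ± 0.31 (adjusted p = 0.0412, 0.115 with the block), PPP3CB, a calcineurin catalytic chain, by 1.34 ± 0.31 (adjusted p = 0.048, 0.0589 with the block), and ITPR2, a calcium channel of the endoplasmic reticulum, by 1.23 ± 0.29 (adjusted p = 0.0459). None of these 6 reached 4-fold. PDK1 lost the call when any 1 of treated replicates 2 and 3 and untreated replicate 3 was left out (adjusted p up to 0.0866). EIF2A lost the call when any 1 of treated replicates 2 and 3 and untreated replicates 1, 2 and 3 was left out (adjusted p up to 0.0875). NABP2 lost the call when any 1 of treated replicates 2 and 3, untreated replicates 2 and 3 and 6 L1236 arrays was left out (adjusted p up to 0.154). SUCLA2 lost the call when any 1 of treated replicates 2 and 3, untreated replicates 1, 2 and 3 and 5 L1236 arrays was left out (adjusted p up to 0.159). PPP3CB and ITPR2 lost the call when any 1 of treated replicates 2 and 3, untreated replicates 1, 2 and 3 and 6 L1236 arrays was left out (adjusted p up to 0.181 and 0.185, in that order).

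Sterol synthesis was the list with the most falls as a share of members. Of 18 genes of sterol synthesis and uptake none rose and 3 fell, with 15 of 18 lower and a median difference of -0.50. Over all genes 1.34% fell, and 12937 of 19775 had a lower treated mean. The count of falls was 2 with the block, 7 without both arrays numbered 1, and between 0 and 11 with 1 array left out, the latter without treated replicate 1. SREBF2, the master regulator of the pathway, measured 8.12, 7.77 and 8.29 without treatment and 7.45, 7.08 and 6.57 after it and fell by 1.03 ± 0.22 (adjusted p = 0.0369, 0.0943 with the block). LSS, which closes the sterol rings, measured 10.02, 10.12 and 10.22 without treatment and 9.75, 9.14 and 8.94 after it and fell by 0.84 ± 0.18 (adjusted p = 0.0351, 0.107 with the block), and HMGCS1, which makes the HMG-CoA precursor, measured 11.52, 11.72 and 11.37 without treatment and 10.99, 11.21 and 10.94 after it and fell by 0.49 ± 0.11 (adjusted p = 0.0359). SREBF2 lost the call when any 1 of treated replicates 2 and 3, untreated replicates 1, 2 and 3 and 4 L1236 arrays was left out (adjusted p up to 0.115). LSS lost the call when any 1 of treated replicates 2 and 3, untreated replicates 1, 2 and 3 and 5 L1236 arrays was left out (adjusted p up to 0.136). HMGCS1 lost the call when any 1 of treated replicate 3, untreated replicates 1 and 2 and 4 L1236 arrays was left out (adjusted p up to 0.147). In L1236, 8 of the 18 fell, and the fall of HMGCS1 there was larger (difference -1.25 ± 0.11, adjusted p of the difference between lines = 0.0267). Of 8 fatty acid genes none was called (3 at an unadjusted p under 0.05), and SCD, the stearoyl desaturase, differed by -1.0 ± 0.26 (adjusted p = 0.072).

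Energy metabolism held few calls. Of 28 subunit genes of oxidative phosphorylation none was called (7 at an unadjusted p under 0.05), although 27 of 28 had a lower treated mean, with a median difference of -0.32. For comparison, 12937 of all 19775 genes had a lower treated mean. Their mean level was 13.06, 13 and 12.94 without treatment and 13.05, 12.47 and 12.52 after it, so treated replicate 1 was level with the untreated arrays and replicates 2 and 3 were lower. Without both arrays numbered 1, 12 of the 28 fell. The member with the smallest adjusted p was COX5A, a subunit of cytochrome c oxidase, with a difference of -0.39 ± 0.11 (adjusted p = 0.0956). Of 19 glycolysis genes 1 rose, near the share of all genes (3.32%). It was PFKM, the muscle phosphofructokinase, which measured 6.97, 6.91 and 7.22 without treatment and 8.50, 8.78 and 8.96 after it and rose by 1.71 ± 0.14 (adjusted p = 0.000303). In L1236 PFKM differed by -0.39 ± 0.14 (adjusted p of the difference = 0.000505). All 7 pentose phosphate genes had a lower treated mean (median difference -0.45) and none was called (4 at an unadjusted p under 0.05). The transketolase-like gene TKTL1, which rose, is counted with the X-linked antigens instead. Of these 7, 5 fell without both arrays numbered 1, and RPIA, of the branch that makes ribose phosphate, differed by -0.39 ± 0.10 (adjusted p = 0.071).

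Housekeeping groups held no call in limma. None of 30 ribosomal protein genes was called (8 at an unadjusted p under 0.05), and 2 rose and 5 fell without both arrays numbered 1. In that setting 9.77% of all genes rose and 8.6% fell. In the main limma fit 3893 of all 19775 genes had an unadjusted p under 0.05. RPS19 differed by 0.13 ± 0.03 (adjusted p = 0.0563) and RPL11 by -0.36 ± 0.09 (adjusted p = 0.0686). None of 38 DNA repair genes was called (10 at an unadjusted p under 0.05), with the smallest adjusted p at ERCC1, a nuclease of crosslink repair, which differed by -0.79 ± 0.19 (adjusted p = 0.0502). FANCF, of the Fanconi core complex, differed by 0.35 ± 0.12 (adjusted p = 0.135, 0.0389 with the block).

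Stress pathways held few calls. None of 20 genes of the unfolded protein response was called (3 at an unadjusted p under 0.05), though 15 had a higher treated mean, and ATF3 differed by 1.02 ± 0.32 (adjusted p = 0.122). None of 11 heat shock genes was called (2 at an unadjusted p under 0.05), 2 rose with the block, and HSPB1, a small heat shock protein gene, differed by 1.22 ± 0.29 (adjusted p = 0.0514, 0.0068 with the block). Of 20 antioxidant genes 2 rose, 3 with the block and 4 without both arrays numbered 1, where all genes rose in 3.32% in the main fit. PRDX2, the peroxiredoxin gene described above, also rose but is outside this list. HMOX1, the haem oxygenase gene, measured 3.58, 3.84 and 4.26 without treatment and 4.75, 6.24 and 6.02 after it and rose by 1.78 ± 0.37 (adjusted p = 0.0318). GPX1, a glutathione peroxidase, measured 13.28, 13.77 and 13.85 without treatment and 14.22, 14.30 and 14.28 after it and rose by 0.63 ± 0.14 (adjusted p = 0.0397). HMOX1 lost the call when any 1 of treated replicates 2 and 3, untreated replicates 1, 2 and 3 and 3 L1236 arrays was left out (adjusted p up to 0.132). GPX1 lost the call when any 1 of treated replicates 2 and 3, untreated replicate 2 and 4 L1236 arrays was left out (adjusted p up to 0.141). Of 7 metallothioneins 6 had a higher treated mean and none was called (5 at an unadjusted p under 0.05), with a median difference of 1.16. With the block 2 were called, and without treated replicate 1 there were 4. MT1G differed by 1.04 ± 0.29 (adjusted p = 0.083, 0.0363 with the block).

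Of 21 autophagy genes 1 rose, near the share of all genes (3.32%), and none did with the block. GABARAPL1, which coats autophagosomes, measured 6.64, 6.03 and 6.01 without treatment and 7.24, 7.87 and 8.0 after it and rose by 1.47 ± 0.29 (adjusted p = 0.0246, 0.0892 with the block). Of 18 lysosome genes 4 rose, where all genes rose in 3.32%, and 1 rose with the block and 6 without both arrays numbered 1. LAMP3, a lysosomal membrane protein gene of dendritic cells, measured 6.66, 6.67 and 7.17 without treatment and 9.06, 11.67 and 11.29 after it and rose by 3.84 ± 0.64 (adjusted p = 0.0128). The cathepsin genes CTSH and CTSS rose by 1.39 ± 0.32 (adjusted p = 0.0438, 0.0797 with the block) and 1.22 ± 0.28 (adjusted p = 0.0455, 0.0604 with the block). GABARAPL1 lost the call when any 1 of treated replicates 2 and 3 and untreated replicates 2 and 3 was left out (adjusted p up to 0.108). LAMP3 lost the call when any 1 of treated replicate 3 and untreated replicate 2 was left out (adjusted p up to 0.0595). CTSH lost the call when any 1 of treated replicates 2 and 3, untreated replicates 1, 2 and 3 and 5 L1236 arrays was left out (adjusted p up to 0.145). CTSS lost the call when any 1 of treated replicates 2 and 3, untreated replicates 2 and 3 and 5 L1236 arrays was left out (adjusted p up to 0.165).

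Of 56 genes of Notch, WNT, TGF-beta and hedgehog signalling 2 rose and 2 fell, near the shares of all genes (3.32% and 1.34%). NOTCH4, the 1 rise among 14 Notch genes, measured 5.21, 5.58 and 5.56 without treatment and 7.50, 8.24 and 8.21 after it and rose by 2.53 ± 0.37 (adjusted p = 0.00646). FZD3, a WNT receptor and the 1 fall among 17 WNT genes, measured 8.79, 9.02 and 8.93 without treatment and 8.27, 8.08 and 8.12 after it and fell by 0.75 ± 0.16 (adjusted p = 0.0311). In L1236 FZD3 differed by 0.66 ± 0.16 (adjusted p of the difference = 0.00988). The TGF-beta receptors went opposite ways: TGFBR1, the signalling kinase, measured 9.04, 9.20 and 9.39 without treatment and 8.50, 8.59 and 8.24 after it and fell by 0.77 ± 0.15 (adjusted p = 0.0225, 0.0511 with the block), and TGFBR3, the co-receptor betaglycan, measured 6.93, 6.75 and 7.05 without treatment and 7.53, 8.50 and 8.47 after it and rose by 1.26 ± 0.26 (adjusted p = 0.0319, 0.0709 with the block). FZD3 lost the call when any 1 of treated replicates 2 and 3, untreated replicates 2 and 3 and 2 L1236 arrays was left out (adjusted p up to 0.119). TGFBR1 lost the call when any 1 of treated replicate 3 and untreated replicates 2 and 3 was left out (adjusted p up to 0.0935). TGFBR3 lost the call when any 1 of treated replicates 2 and 3, untreated replicates 1, 2 and 3 and 4 L1236 arrays was left out (adjusted p up to 0.131). Of 25 TGF-beta, BMP and hedgehog genes these 2 were the calls, and without both arrays numbered 1 there were 5 rises and 3 falls. None of 27 receptor tyrosine kinases and none of 23 cytoplasmic kinases and phosphatases was called (3 and 6 at an unadjusted p under 0.05), with the smallest adjusted p at TYRO3 (1.13 ± 0.33, adjusted p = 0.0955) and PIM2 (0.99 ± 0.23, adjusted p = 0.0506).

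In most called genes treated replicate 1 was nearer to the untreated arrays than treated replicates 2 and 3 were. For each gene its change was expressed as a percentage of the mean change of treated replicates 2 and 3 against the untreated mean. Over the 281 genes that rose at least 4-fold the median was 61.1%, and in 268 of them replicate 1 lay below both other treated arrays. Over the 264 falls the median was 71.4%, and in 183 replicate 1 lay above both. The change in replicate 1 was the larger in 71 of the 656 rises and 51 of the 264 falls, such as CTSH with 148% and S100A4 with 131%. These genes were called with replicate 1 in the fit, so IFNG, which was not called, is not among them. By group, with no test between groups, the value was 86.5% in IFNL1, 87.9% in IFNL2 and 49.7% in IFNB1, and the median was 80.7% over the OAS genes, 73.1% over the 44 interferon-stimulated effectors, 71.9% over the 11 X-linked antigens, 66.7% over the histone genes, 58.0% over the autosomal germ-cell genes, 55.6% over the chemokines and 48.1% over the guanylate-binding protein genes. These values come from 1 array and have no replicate. What made the array differ was not tested, and its source name, which reads Aza, moves with it. Treated L1236 replicate 1 also deviated most in its own line.

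**Figure D5:**
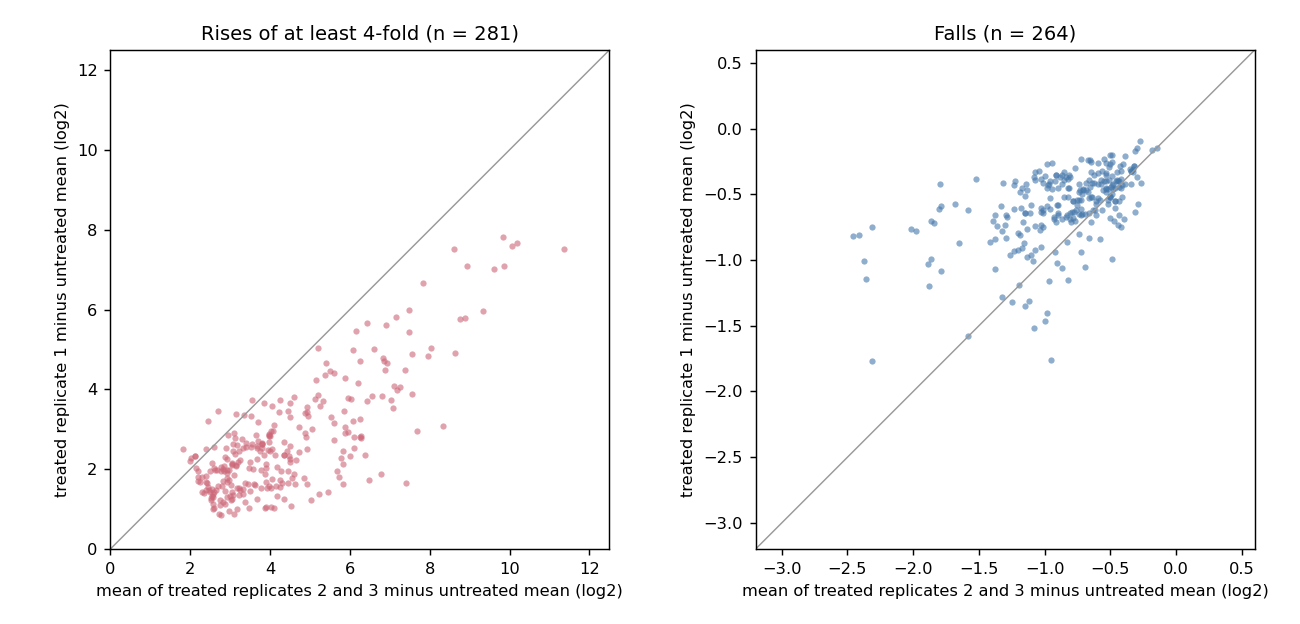
Change in treated L428 replicate 1 against the mean change of treated replicates 2 and 3, both as log2 differences from the untreated mean, 1 point per gene, for the 281 rises of at least 4-fold (left) and the 264 falls (right); the line marks equal change. Most points of the left panel lie below the line, with a median share of 61.1%, and in the right panel most lie on the other side of it, with 71.4%.

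A gene with several probe sets was read from the brightest of them by its mean over all 12 arrays, treated ones included. For a gene near the floor this choice can favour a probe set that rose. The number and size of rises are to be read with that limit. Of the 506 genes that rose at least 2-fold, 264 had other probe sets, whose median moved the same way in 196, and 144 had another probe set with at least a 2-fold rise. Of the 59 that fell at least 2-fold, 44 had others, whose median moved the same way in 42, and 12 had another with at least a 2-fold fall. With the mean of all probe sets of a gene in the fit, 614 genes rose and 287 fell. Of the 920 calls, 700 were kept in their direction.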

How the data were processed

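The authors deposited a log2 value for each probe set on each array. Robust multichip averaging (RMA) produced them, per the design text and the submitters' processing notes; the RMA version and any further scaling were not given in the sources used here. The 54675 identifiers of the probe sets belong to an array design for 3' ends, whereas a whole-transcript array is named in the design text, and this conflict could not be settled. Of the probe sets, 62 were controls, 41097 had 1 gene symbol, 1801 several and 11777 none, and 41037 were matched to RefSeq (GRCh38.p14) by Entrez identifier.

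The brightest probe set by its mean over all 12 arrays, treated ones included, stood for each of 19775 genes. limma 3.58.1 (R 4.3.3) fitted 4 group means to all 12 arrays, with empirical Bayes moderation, two-sided tests and Benjamini-Hochberg adjustment over all genes. A comparison of 3 arrays against 3 has a smallest exact permutation p of 0.1. Same-numbered L428 arrays deviated together (r = 0.25, 0.169 and 0.164), but so did replicates 2 and 3 across numbers (0.173 and 0.161), and in L1236 the same-numbered values were 0.049, -0.018 and 0.063. The labels name no pairing, and a replicate block was fitted beside the main model.

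Named genes are the 20 largest rises and 12 largest falls, the 8 of each with an untreated mean of at least 8, the 3 called members with the largest change in each list role (or the member with the smallest adjusted p), cell type markers and drug targets. Some further members are named for their list. Members, lists and rules were chosen with earlier results of these data known. A few STAT genes and 1 of the 12 falls are not reported here.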

Additional observations from a re-analysis of the deposited data

Results flagged for a closer look

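These genes were picked out because their response differed between the lines by limma's test of the difference (L1236 response minus L428 response, adjusted p under 0.05). The values in brackets are that difference on the log2 scale, negative where the response was larger in L428. No cause was tested.

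Interferon system genes with the larger response in L428 were IFNL2 (-6.2), OAS1 (-5.51), OAS2 (-4.87), OASL (-3.08), IFIT1 (-5.04), IFIT2 (-3.16), IFI6 (-5.48), IFI44L (-3.3), TRIM22 (-4.87), USP18 (-2.85), PARP9 (-2.78), PLSCR1 (-3.33), ZBP1 (-3.37), CXCL10 (-3.4), PSMB8 (-1.04) and PSMB9 (-0.69). Germ-cell and histone genes with the larger response in L428 were SSX1 (-6.05), SSX3 (-4.23), CCNA1 (-6.02) and H2AC6 (-6.82). For SSX1, SSX3 and H2AC6 the untreated L1236 level was already high.

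Other genes with a negative value were TNFSF13B (-3.93), CR2 (-2.94), ANXA6 (-2.14), BIK (-1.8), PFKM (-2.1) and HMGCS1 (-0.75). HMGCS1 fell in both lines, and further in L1236.

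Genes of other lineages and of plasma cells with a positive value, thus a larger rise in L1236, were EPCAM (5.39), KRT18 (3.99), KRT19 (2.03), COL1A1 (2.07), CD3D (2.72), CD8A (3.37), ITGAM (1.49), TYROBP (1.97) and PRDM1 (1.64). The remaining positive values were S100P (2.51), CCL17 (2.29), FZD3 (1.41), TGFBR1 (1.0), RING1 (0.48), AGAP4 (1.8) and TSPAN12 (1.59). In AGAP4, TSPAN12, FZD3, TGFBR1 and RING1 the positive value goes with a fall in L428.

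Of these 42 genes, 24 kept the call for the difference with every 1 of the 12 arrays left out, and 18 lost it without at least 1 array. CXCL10 and RING1 lost it without untreated L1236 replicate 3 alone (adjusted p = 0.0507 for both). The others that lost it were TRIM22, SSX3, CCNA1, AGAP4, TSPAN12, IFIT2, IFI44L, OASL, IFI6, TNFSF13B, HMGCS1, PSMB9, BIK, TGFBR1, CD3D and COL1A1. Each lost it without any of 4 to 10 arrays, of both lines, with adjusted p-values up to 0.118 (IFIT2). With the replicate block 22 of the 42 kept the call, and OAS1, H2AC6, USP18, IFIT1, PSMB8, CCL17 and TYROBP lost it with the block although no single array decided it (adjusted p = 0.0771, 0.0731, 0.0591, 0.0649, 0.0686, 0.0597 and 0.0768). The block also ended the call of TRIM22 (adjusted p = 0.105), CCNA1 (0.0811), IFIT2 (0.175), IFI44L (0.0854) and OASL (0.151). IFI6 (0.128), TNFSF13B (0.103), PSMB9 (0.117) and RING1 (0.0596) lost it too. So did BIK (0.0562), TGFBR1 (0.0774), CD3D (0.156) and COL1A1 (0.0633). PRDX2, named outside the rule, kept the call with every array left out and with the block.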

How the results depend on the processing

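Counts of called genes moved more than single directions. Against 920 in L428, array weights called 6561, centring on the gene median 12842, the 6 L428 arrays alone 206, a test against a 2-fold threshold 137, and the fit without both L428 arrays numbered 1 called 3633. Leaving out 1 array gave 368 to 3532. For the difference between lines, 914 calls became 5718 with array weights, 497 with the replicate block, 2305 without both L428 arrays numbered 1, and 442 to 2112 with 1 array left out. The silent genes switched on numbered 45 in the main analysis, 19 with limits of 3.5 and 7, and 175 without treated L428 replicate 1.

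With the replicate block 850 genes were called in L428, of which 492 were among the 920. Of 127 called genes chosen by rule 83 kept their call with the block, and a changed call is given beside each gene named in the text; the block changed no other call among them. Over 23 alternatives, 44 of the 127 kept their call under all of them, and none of the 127 changed direction. With only the 6 L428 arrays in the fit, 49 of the 127 kept their call and 78 lost it. Among those that lost it were RSAD2, MAGEA4 and CCNA1 (limma adjusted p = 0.0546, 0.0865 and 0.061). In that fit 32 of the 46 interferon-stimulated effectors rose, 7 of the 32 X-linked antigens and 4 of the 14 histone genes. The counts were 4 of 52 autosomal germ-cell genes, 1 of 29 chemokines and 0 of 6 guanylate-binding protein genes. Named genes that were not called and that changed sign with a call were RPS19 (-0.30), POU2F2 (-0.41), PRDM1 (-0.42) and COL3A1 (-0.38) under gene-median centring, and MZB1 with array weights (-0.57) and without both arrays numbered 1 (-0.51). Centring on the median of all probe sets was added after the data were seen and called 916. Signal over background limits the genes near the floor, and the number of arrays limits all values.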
